A study of Mus musculus with 3 samples.

Results

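Fbn1, Adamtsl2 and Adamtsl4 are 3 genes of the fibrillin microfibril for which expression was compared between the cell groups of the mouse mitral valve. They were chosen by name, as the fibrillin and ADAMTS-like genes among the 3264 genes with a value in every cell. No cutoff on a measured value was used, but earlier results of these data were known. The data are 1 matrix of gene expression from mitral valve tissue, with 16383 barcodes of pooled libraries. The labels name single cells, whereas the methods describe libraries of cells and of nuclei. Which of these the barcodes are could not be settled, so they are called cells below only for brevity. Its 3 samples are from B6.129-Fbn1tm2Rmz/J mice, here called mgR, which according to the methods were 12 weeks old and carried the mgR allele of Fbn1 on both copies. That allele holds a cassette inside an intron of Fbn1, keeps the coding sequence and yields little of the normal transcript, so every level of Fbn1 given here comes from valves that include mgR tissue. The methods also describe wild-type mice and, for nuclei, mgR mice given rapamycin, but the barcodes name no mouse, genotype, treatment or library. The matrix was therefore treated as 1 sample, without a comparison of genotypes, a test or a spread between mice.

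Fibrillin-1, the product of Fbn1, is the main glycoprotein of extracellular microfibrils, thin filaments that scaffold elastic fibers and hold latent TGF-β and BMP complexes in the matrix. Mutations of the human gene cause Marfan syndrome, in which mitral valve prolapse is common. ADAMTS-like proteins resemble the ADAMTS metalloproteases but lack the catalytic domain, and several of them bind fibrillin-1. ADAMTSL2 is mutated in geleophysic dysplasia, and ADAMTSL4 in isolated ectopia lentis, a displacement of the lens whose fibers are made of fibrillin microfibrils.

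In the GENCODE M21 annotation of GRCm38, the build that the submitters' processing notes name as mm10, Fbn1 (ENSMUSG00000027204.13) lies at chr2:125300594-125507993 on the minus strand. Its transcript form with the most exons has 66, and the exon counts below are for such forms too. Adamtsl2 (ENSMUSG00000036040.14) lies at chr2:27079379-27108981 on the plus strand and has 19 exons. Adamtsl4 (ENSMUSG00000015850.11) lies at chr3:95676201-95687917 on the minus strand and has 18 exons. Gm9913, annotated as protein coding on the plus strand, overlaps the 5′ end of Fbn1 and had 171 UMIs in all cells against 27184 for Fbn1.

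The stretches upstream of Adamtsl2 and Adamtsl4 are shown because these genes, which belong to 1 family, were highest in different cells. Both come from the RefSeq promoter table of GRCm38.p6, read 5′ to 3′ on the strand of the gene, and stop before the first annotated start. Capitals mark GGGCGG, the core of the GC box. The stretch of Adamtsl2 is chr2:27079129-27079335 on the plus strand, and that of Adamtsl4 is chr3:95687928-95688167 on the minus strand.

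Adamtsl2: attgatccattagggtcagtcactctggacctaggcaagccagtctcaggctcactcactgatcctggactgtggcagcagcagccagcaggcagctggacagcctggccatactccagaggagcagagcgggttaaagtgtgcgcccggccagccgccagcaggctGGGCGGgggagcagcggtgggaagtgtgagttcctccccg

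Adamtsl4: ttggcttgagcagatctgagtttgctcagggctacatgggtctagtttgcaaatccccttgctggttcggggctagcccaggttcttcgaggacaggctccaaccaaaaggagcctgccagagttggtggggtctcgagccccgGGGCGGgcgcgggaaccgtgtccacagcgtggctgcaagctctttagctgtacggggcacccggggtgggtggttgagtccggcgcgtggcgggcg

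Short motifs were searched on both strands of the whole 300-base RefSeq windows, which start 250 bases before the RefSeq start and run 50 bases past it. These were TATAAA, the core of the TATA box, GGGCGG, and CAGAC, the SMAD box bound by TGF-β effectors. Of all 32851 mouse promoters, 13.6% held TATAAA, 35.7% held GGGCGG and 49.6% held CAGAC. Adamtsl2 held TATAAA 30 bases before its start, GGGCGG 83 bases before it, and CAGAC on the opposite strand 44 bases before it. Adamtsl4 held GGGCGG at 4 places and neither of the other motifs. The printed stretches stop earlier than the windows. They hold whole only the GGGCGG 83 bases before the RefSeq start in Adamtsl2 and 106 bases before it in Adamtsl4. In the window of Fbn1, GGGCGG was found once, 185 bases before the start. A match is a description of the letters and not a binding site.

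Each cell had between 503 and 23127 unique molecular identifiers (UMIs, tags that mark single RNA molecules) (median 5349). In alphabetical order the columns fell into 2 runs, a first of 14222 cells and a second of 2161, with 11 barcodes in common, and both are given apart below. Fibroblasts were the 3149 cells (19.2%) in which 2 or more of the fibroblast genes Prrx1, Col3a1 and Dpt were found and Egfl7 was not, which encodes a factor secreted by endothelium. Endothelial cells were the 8966 cells (54.7%) with Egfl7 and fewer than 2 of those genes. Of the other cells, the 487 with a UMI of Ptprc, the leukocyte antigen CD45, are called Ptprc cells (2.97%), and 3781 remained. Within the fibroblasts, 514 had Scn7a without Prg4, 1662 had Prg4 (lubricin) without Scn7a, 277 had both and 696 had neither. Over the 5 endothelial markers in the matrix, the summed level was 12.3 UMIs per 10000 in endothelial cells and 0.353 in fibroblasts, and over 5 leukocyte markers it was 33.7 in Ptprc cells and at most 0.409 in the other 2 groups. These sums include Egfl7 and Ptprc, which the rule itself used, so part of each gap was set by the rule. The fibroblast list had no marker in the matrix beyond the genes of the rule, so the fibroblast name rests on those genes.

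Fbn1 was expressed most in fibroblasts. Its level, given as its summed UMIs in a group per 10000 UMIs of those cells, was 4.84 (95% exact Poisson interval 4.74 to 4.93). In endothelial cells it was 2.04 (2.001 to 2.08), and in Ptprc cells 0.523 (0.439 to 0.619). These 3 intervals do not overlap, and the order was the same in each barcode run. The intervals here and below hold counting error alone, and the spread between mice is unknown.

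The share of cells with a Fbn1 UMI followed the same order. After each cell had been thinned to 2000 UMIs, which left out 92 fibroblasts and 563 endothelial cells below that depth, Fbn1 was found in 50.3% of fibroblasts (95% exact binomial interval 48.5 to 52.1), 29.9% of endothelial cells (28.9 to 30.9) and 7.62% of Ptprc cells (5.30 to 10.5). The unthinned shares were 76.7%, 54.5% and 14.0%, where the median depth was 6063, 5366 and 4902 UMIs. At the common depth, 831 of 3057 fibroblasts had 1 UMI of Fbn1, 388 had 2 and 318 had 3 or more, with a highest count of 15. Fbn1 was thus spread over many fibroblasts, and the 10% of cells with the most Fbn1 held 42.9% of its UMIs.

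Adamtsl2 was found mostly in fibroblasts among these 3 groups. Its level was 1.08 (1.03 to 1.12) in fibroblasts, 0.0850 (0.0774 to 0.0931) in endothelial cells and 0.101 (0.0658 to 0.148) in Ptprc cells. The intervals of endothelial and Ptprc cells overlap. At 2000 UMIs it was found in 13.2% of fibroblasts (11.97 to 14.4), 1.44% of endothelial cells (1.20 to 1.72) and 0.924% of Ptprc cells (0.252 to 2.35). The endothelial share was not above that of Ptprc cells beyond counting error. At this depth 2655 of 3057 fibroblasts had no UMI of Adamtsl2, 271 had 1 and 54 had 3 or more. The 10% of cells with the most held 84.3% of its UMIs. That share rises as a gene has fewer UMIs, so it does not show that Adamtsl2 was less evenly spread than Fbn1.

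Adamtsl4 had the opposite order and was highest in endothelial cells. Its level was 0.672 (0.650 to 0.694) there, 0.252 (0.194 to 0.321) in Ptprc cells and 0.214 (0.194 to 0.235) in fibroblasts. The intervals of Ptprc cells and fibroblasts overlap. At 2000 UMIs, Adamtsl4 was found in 11.8% of endothelial cells (11.2 to 12.6), 3.93% of fibroblasts (3.27 to 4.68) and 3.70% of Ptprc cells (2.13 to 5.93). The intervals of the shares in fibroblasts and Ptprc cells overlap. Where Adamtsl4 was found in an endothelial cell it was mostly as 1 UMI, in 838 of 995 cells.

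**Figure D1:**
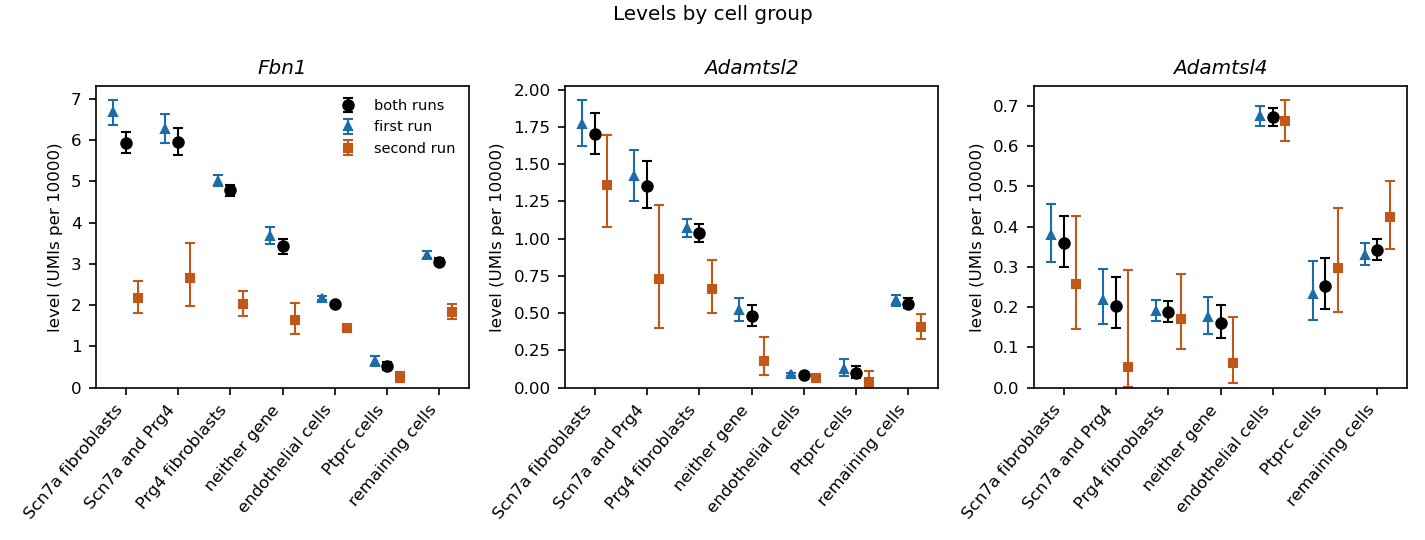
Levels of Fbn1, Adamtsl2 and Adamtsl4 in UMIs per 10000 (vertical axes start at 0) in 4 fibroblast subsets, endothelial cells, Ptprc cells and the remaining cells. Circles are both barcode runs together, triangles the first run and squares the second, with 95% exact Poisson intervals. Fbn1 and Adamtsl2 are highest in the fibroblast subsets with Scn7a, Adamtsl4 is highest in endothelial cells, and Fbn1 is lower in the second run in every group.

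Between fibroblasts and endothelial cells, all 3 members differed by more than 2 times. The level of Fbn1 was 2.37 times higher in fibroblasts (95% exact conditional interval 2.31 to 2.44) and that of Adamtsl2 12.7 times higher (11.5 to 14.0). The level of Adamtsl4 was 3.14 times higher in endothelial cells (2.85 to 3.48). In the second run alone Fbn1 did not pass 2 times, at 1.41 (1.26 to 1.57). Of the 1780 genes with a level of at least 0.1 in either group, 16.5% were at least 2 times higher in fibroblasts and 14.2% at least 2 times higher in endothelial cells. By ratio, Adamtsl2 was the 89th and Fbn1 the 248th gene from the fibroblast end, and Adamtsl4 the 150th from the endothelial end. A difference past 2 times was common between these groups, and many other genes differed more than Fbn1. Against Ptprc cells, the level in fibroblasts was 9.25 times higher for Fbn1 and 10.7 times higher for Adamtsl2, past 2 times like 18.8% of 1899 genes, while 20.6% were at least 2 times lower and no member was. The endothelial level was 3.90 times that of Ptprc cells for Fbn1 and 2.67 times for Adamtsl4, where 14.4% of 1850 genes were at least 2 times higher and 20.3% at least 2 times lower.

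In endothelial cells the level of Fbn1 was 42.1% of that in fibroblasts. Most of the 1780 genes compared kept a larger part, since 86.1% had a lower ratio of fibroblasts to endothelial cells. The part kept was 7.89% for Adamtsl2, 2.35% for Prg4 and 1.19% for Scn7a. It was 11.9% for Col3a1, which the rule held low. Prg4 and Scn7a had no part in the choice of endothelial cells. They were taken as marks of fibroblast subsets, so their low values do not set Fbn1 apart. Among the 7300 endothelial cells without a UMI of Prrx1, Col3a1 or Dpt the level of Fbn1 was 2.03 (1.99 to 2.07), and 41.9% of the fibroblast level. In those cells Prg4 was at 1.40% and Scn7a at 0.612% of their fibroblast levels. The part of free RNA in these levels was not tested.

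In Ptprc cells these values lay closer together. Fbn1 was at 10.8% of its fibroblast level there, Adamtsl2 at 9.35% and Scn7a at 8.65%. The genes of the fibroblast rule were at 8.27% (Prrx1), 8.39% (Dpt) and 10.6% (Col3a1). Prg4 was higher, at 17.1%. Prrx1, Dpt and Col3a1 were held low there by the rule, which called cells with 2 or more fibroblast genes as fibroblasts first. The levels in Ptprc cells depended on that order. With every cell that had a UMI of Ptprc taken first, Fbn1 was 1.25 (1.15 to 1.36) there, still below endothelial cells, Adamtsl2 was 0.190 (0.151 to 0.235) and Adamtsl4 was 0.325 (0.274 to 0.383). Adamtsl2 was then above its endothelial level of 0.0855 and Adamtsl4 above its fibroblast level of 0.211, both without overlap of the intervals. With all 3 fibroblast genes required of fibroblasts, Ptprc cells had Fbn1 at 0.924 and Adamtsl2 at 0.161, and in the second run alone they had 0.246 and 0.0388. The part of free RNA or doublets in these levels was not tested. The 312 Ptprc cells with Mrc1, a mannose receptor of macrophages, had 0.467 (0.372 to 0.579) of Fbn1, and the 175 without it 0.648 (0.484 to 0.849), with overlapping intervals.

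The 3781 remaining cells held Fbn1 at 3.05 (2.98 to 3.13), Adamtsl2 at 0.565 (0.532 to 0.599) and Adamtsl4 at 0.342 (0.316 to 0.369), between the levels of fibroblasts and endothelial cells for every member. Cells with no Egfl7 and not called by Ptprc were also sorted by the number of fibroblast genes found. In the first run Fbn1 was 2.17 with none, 4.23 with 1, 5.10 with 2 and 5.28 with all 3. In the second run it was 1.86, 1.70, 2.004 and 2.19 in the same order, and the interval with none (1.63 to 2.12) overlapped that with 1 (1.40 to 2.05). Fbn1 was thus higher with 1 fibroblast gene than with none in the first run, which was not seen in the second. Adamtsl2 was 0.252, 1.03, 1.21 and 1.02 in the first run and 0.113, 0.490, 0.761 and 0.746 in the second, lowest without a fibroblast gene in both. Adamtsl4 went the other way, with 0.413 over both runs where no fibroblast gene was found and between 0.192 and 0.215 in the others. Another 421 cells had at least 2 fibroblast genes together with Egfl7, at a median of 8709 UMIs, and in these Fbn1 was 3.94, Adamtsl2 0.725 and Adamtsl4 0.418, each between the fibroblast and the endothelial level.

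Within the fibroblasts, all 3 members were higher in cells with Scn7a than in cells with Prg4, but none by 2 times. The level of Fbn1 was 5.93 (5.68 to 6.19) in Scn7a fibroblasts and 4.78 (4.66 to 4.91) in Prg4 fibroblasts, a ratio of 1.24 (1.18 to 1.30). Adamtsl2 was 1.70 (1.57 to 1.84) and 1.04 (0.980 to 1.10), a ratio of 1.64 (1.48 to 1.81). Adamtsl4 was 0.359 (0.299 to 0.427) and 0.189 (0.164 to 0.216), a ratio of 1.90 (1.51 to 2.38). Of 1710 genes, 5.85% were at least 2 times higher in Scn7a fibroblasts and 5.03% in Prg4 fibroblasts. From the Scn7a end, Adamtsl4 was the 106th, Adamtsl2 the 144th and Fbn1 the 325th gene. In the second run, with 69 Scn7a and 111 Prg4 fibroblasts, the ratio of Fbn1 was 1.07 (0.843 to 1.35), which is not above 1 beyond counting error, and that of Adamtsl2 was 2.05 (1.45 to 2.94).

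Fibroblasts with neither subset gene had the lowest levels of each member among the 4 subsets. Fbn1 was 3.43 (3.25 to 3.61) and Adamtsl2 0.481 (0.415 to 0.554), below the others without overlap, while Adamtsl4, at 0.161 (0.124 to 0.206), overlapped Prg4 fibroblasts. Those with both genes had Fbn1 at 5.95 (5.62 to 6.29), which overlaps the interval of Scn7a fibroblasts, and Adamtsl2 at 1.36 (1.20 to 1.52), between Scn7a and Prg4 fibroblasts. Depth moved with these subsets, since the median was 5202 UMIs in cells with neither gene and 6891 in cells with both. When fibroblasts were sorted by depth into 4 sets, Fbn1 went from 4.16 (3.92 to 4.41) to 5.42 (5.26 to 5.57) and Adamtsl2 from 0.923 (0.811 to 1.05) to 1.26 (1.19 to 1.34) between the shallowest and the deepest set. The part of depth in the subset levels was not tested.

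Fbn1 and Adamtsl2 were found together in fibroblasts. At 2000 UMIs, Adamtsl2 was found in 17.1% (15.3 to 19.1) of the 1537 fibroblasts with Fbn1 and in 9.14% (7.74 to 10.7) of the 1520 without it. Over both runs the shares were 24.0% and 13.7% in Scn7a fibroblasts and 16.7% and 9.51% in Prg4 fibroblasts. In all fibroblasts of the first run they were 17.3% and 9.27%. Each of these pairs was without overlap, the Scn7a pair only narrowly (lower limit 19.3 against upper limit 19.2). In the first run alone, the Scn7a shares of 23.6% (18.7 to 28.99) and 14.1% (9.05 to 20.6) overlap. The Prg4 shares of 16.99% (14.4 to 19.8) and 9.69% (7.66 to 12.05) in that run do not. In fibroblasts with neither subset gene, the shares of 9.38% (6.27 to 13.3) and 5.07% (3.08 to 7.80) overlap. In the second run, where 76 fibroblasts had Fbn1, the shares of 13.2% (6.49 to 22.9) and 8.29% (4.81 to 13.1) overlap. In endothelial cells Adamtsl2 was found in 1.43% of cells with Fbn1 and 1.44% of those without. Adamtsl4 did not go with Fbn1 in either type, with 4.03% and 3.82% in fibroblasts and 11.7% and 11.9% in endothelial cells.

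Between the barcode runs, Fbn1 in fibroblasts differed more than the other members. Its level was 5.16 (5.05 to 5.26) in the 2875 fibroblasts of the first run and 2.04 (1.85 to 2.24) in the 274 of the second, a ratio of 2.53 (2.30 to 2.79). It was the only member past 2 times. Of 1711 genes, 2.81% were at least 2 times higher in the first run and 2.34% in the second. Fbn1 was the 22nd of them by ratio, and the 6th of 769 genes with a level of at least 0.5. Adamtsl2 was 1.11 and 0.746, a ratio of 1.49 (1.27 to 1.77), and Adamtsl4 was 0.220 and 0.159, a ratio of 1.39 (0.978 to 2.03), which includes 1.

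The lower Fbn1 of the second run was found in every fibroblast subset. It was 6.67 and 2.17 in Scn7a fibroblasts, 6.28 and 2.67 in those with both genes, 5.01 and 2.03 in Prg4 fibroblasts and 3.68 and 1.65 in those with neither. In the second run the intervals of Scn7a and Prg4 fibroblasts overlap. In endothelial cells the ratio of Fbn1 was smaller, 2.18 (2.14 to 2.22) against 1.45 (1.38 to 1.52), which is 1.51 (1.43 to 1.59), where 1.22% of 1639 genes passed 2 times and no member did. At equal depth Fbn1 was found in 52.4% of fibroblasts in the first run and 28.3% in the second, and in 31.1% and 22.9% of endothelial cells.

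Other values moved with the runs. Npas2, a transcription factor of the circadian clock, was 1.08 in fibroblasts of the first run and 0.0187 in those of the second, the largest ratio of all genes compared. Per2, a repressor of the clock that peaks at another time of day, was 0.401 and 1.58. The summed level of 10 ribosomal protein genes was 1.68 and 2.96 in fibroblasts and 4.47 and 9.42 in endothelial cells, and the median depth of fibroblasts was 5941 and 7305 UMIs. With ribosomal protein genes left out and levels taken per UMIs on the listed genes, the ratio of Fbn1 between runs was 2.59 (2.35 to 2.85). The part of these values in the lower Fbn1 was not tested, and since no label ties a run to a genotype, the runs cannot be told apart from mice, hour, preparation or library.

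**Figure D2:**
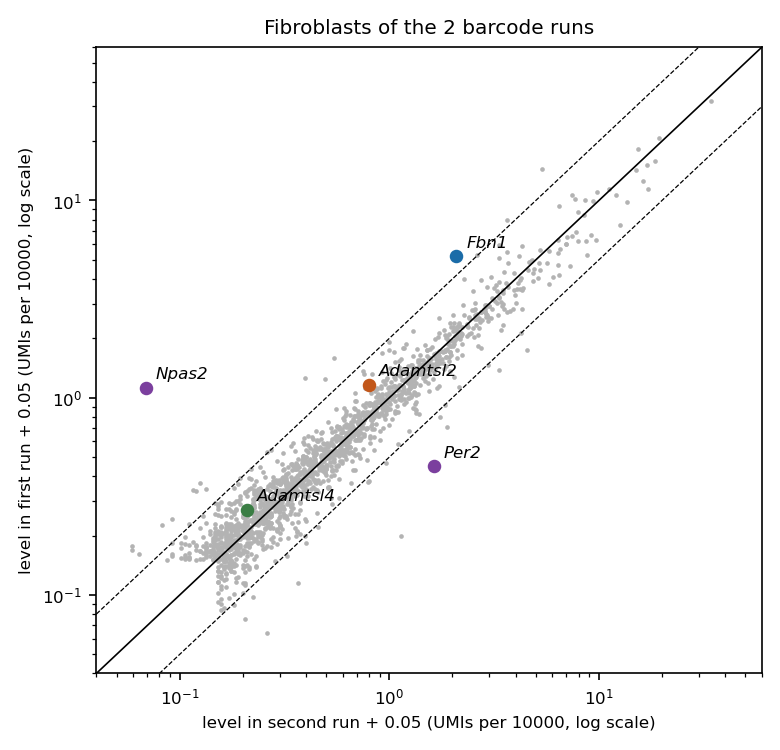
Level of each of 1711 genes in fibroblasts of the first run (vertical) against the second run (horizontal), both plus 0.05 UMIs per 10000 on log scales. The solid line marks equal levels and the dashed lines 2 times more or less. Fbn1 lies above the upper dashed line, Adamtsl2 and Adamtsl4 lie between the lines, and the clock genes Npas2 and Per2 lie outside them on opposite sides.

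Within the endothelial cells, Adamtsl4 was highest in cells with Prox1 or Kif26b. These subsets, made from the gene pairs Prox1 and Kif26b, Tmem163 and Kcnh1, and Selp and Fabp4, were picked with their levels already known. Prox1 is a transcription factor of lymphatic and valve endothelium, and Selp encodes P-selectin of activated and venous endothelium. The level of Adamtsl4 was 1.02 (0.978 to 1.06) in the 3540 cells with only the first pair, 0.331 (0.287 to 0.379) in the 959 with only the second, 0.315 (0.260 to 0.378) in the 637 with only the third and 0.520 (0.479 to 0.564) in the 2283 with none. The first subset stood above all others without overlap, and the other 2 pairs overlap each other.

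The ratio of the first to the second subset was 3.08 (2.67 to 3.57) for Adamtsl4, the 34th of 1645 genes, of which 4.26% were at least 2 times higher in the first. Against the third subset it was 3.24 (2.68 to 3.94), where 2.59% of 1658 genes were at least 2 times higher. Both gaps were present in each run, with 1.08, 0.323 and 0.324 in the first run and 0.851, 0.423 and 0.276 in the second. At 2000 UMIs Adamtsl4 was found in 17.5% (16.2 to 18.9) of cells of the first subset, 6.03% (4.59 to 7.77) of the second and 6.38% (4.58 to 8.62) of the third. Even there, most cells had no UMI of it at this depth.

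Fbn1 varied less than 2 times across the endothelial subsets. It was 2.06, 2.19 (2.07 to 2.31) and 1.68 (1.55 to 1.82) in the same order, and 2.04 in cells with none of the genes. Selp or Fabp4 cells were the lowest, without overlap, and the Prox1 or Kif26b subset was 1.23 times (1.13 to 1.34) higher. At equal depth its share stayed between 29.0% and 31.0% in these 4 subsets. Adamtsl2 was low in all of them, from 0.0489 (0.0399 to 0.0593) in the Prox1 or Kif26b subset to 0.125 (0.0985 to 0.156) in the Tmem163 or Kcnh1 subset. In the first subset it was lower than in the second by 2.55 times (1.87 to 3.45), where 4.98% of genes were at least 2 times lower, and lower than in the third by 2.06 times (1.37 to 3.02), where 5.19% were.

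Other values moved with the endothelial level of Adamtsl4. Between the shallowest and the deepest of 4 sets of endothelial cells it went from 0.894 (0.820 to 0.972) to 0.523 (0.494 to 0.553). The summed level of 5 cardiomyocyte markers was 1.06 in the Prox1 or Kif26b subset and 2.66 in the Tmem163 or Kcnh1 subset. The summed endothelial markers, which include Prox1, were 16.0 and 6.42. The part of these in the level of Adamtsl4 was not tested.

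**Figure D3:**
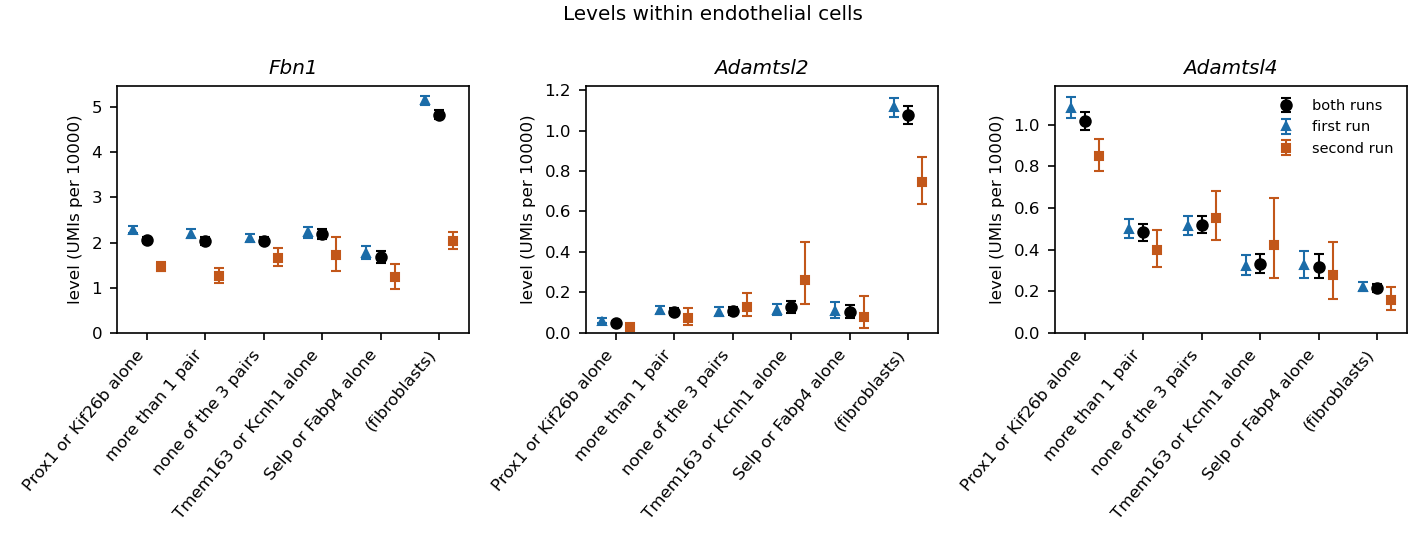
Levels of the 3 members in UMIs per 10000 (vertical axes start at 0) in 5 sets of endothelial cells sorted by 3 pairs of genes, with fibroblasts at the right for scale. Circles are both runs, triangles the first and squares the second, with 95% exact Poisson intervals. Adamtsl4 is at 1.02 in cells with Prox1 or Kif26b alone and between 0.315 and 0.520 in the other sets, while Fbn1 stays between 1.68 and 2.19.

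Of 81 other genes of the microfibril, its ligands, receptors and proteases, 15 were in the matrix. Fbn2, the MFAP, LTBP and LOX genes and most ADAMTS genes were not analysed here. Among the structural genes, Fbln7, a fibulin, was sparse but 19.3 times (8.21 to 55.3) higher in fibroblasts, with 45 UMIs there against 6 in endothelial cells. Of its fibroblast UMIs, 28 were in Scn7a and 4 in Prg4 fibroblasts. Tgm2, a transglutaminase that crosslinks matrix proteins, was 9.58 times (8.16 to 11.3) higher in endothelial cells. Emilin3 had 4 UMIs in fibroblasts and 13 in endothelial cells, too few to order them.

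Among the enzymes, Adamts4, an aggrecanase, was 3.31 times (1.963 to 5.63) higher in fibroblasts on 36 UMIs. Ctsk, a cathepsin that degrades collagen, was 2.38 times (2.18 to 2.61) higher in endothelial cells and, like Adamtsl4, higher in the Prox1 or Kif26b than in the Tmem163 or Kcnh1 subset, at 0.856 against 0.297. Ctss was found mainly in Ptprc cells, at 5.63 against 0.0761 in fibroblasts. Mmp9 had no UMI in fibroblasts or endothelial cells, which allows levels of up to 0.00143 and 0.000558 (3 UMIs). Poglut2, an enzyme that adds glucose to EGF-like domains of fibrillins, was about equal, at 0.220 in fibroblasts and 0.198 in endothelial cells.

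Of the ligands held at microfibrils, Tgfb2 was 2.06 (2.02 to 2.10) in endothelial cells and 1.03 (0.987 to 1.07) in fibroblasts, a ratio of 1.996 (1.91 to 2.09) in favor of endothelial cells. Within endothelial cells its order was the reverse of that of Adamtsl4, with 0.952 in the Prox1 or Kif26b subset and 3.71 in the Tmem163 or Kcnh1 subset. Bmp2 was 0.113 in fibroblasts and 0.0868 in endothelial cells, and Bmp7 had 5 UMIs in fibroblasts and none in endothelial cells, which allows up to 0.000558. In endothelial cells, Tgfb2 was also lower in the second run, by 2.17 times (2.04 to 2.31).

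Of the integrins that bind the RGD sequence of fibrillin-1, Itga8 was 32.8 times (29.6 to 36.4) higher in fibroblasts, at 2.46 against 0.0749. Like the members, it was higher in Scn7a than in Prg4 fibroblasts, by 1.92 times (1.79 to 2.05), but unlike Fbn1 it was not lower in the second run, at 2.41 and 2.90. Itgav was near equal, at 1.32 in fibroblasts and 1.56 in endothelial cells, and highest in Ptprc cells at 2.45. Fn1, fibronectin, on which microfibrils assemble, was 11.4 times (10.6 to 12.3) higher in endothelial cells, at 4.20 against 0.368. Of the 8 listed genes with a level of at least 0.1 in fibroblasts or endothelial cells, 1 (Itga8) was at least 2 times higher in fibroblasts and 3 (Tgm2, Fn1 and Ctsk) in endothelial cells. Over all 1780 genes at that level the shares were 16.5% and 14.2%, and 8 genes are too few to set against them.

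**Figure D4:**
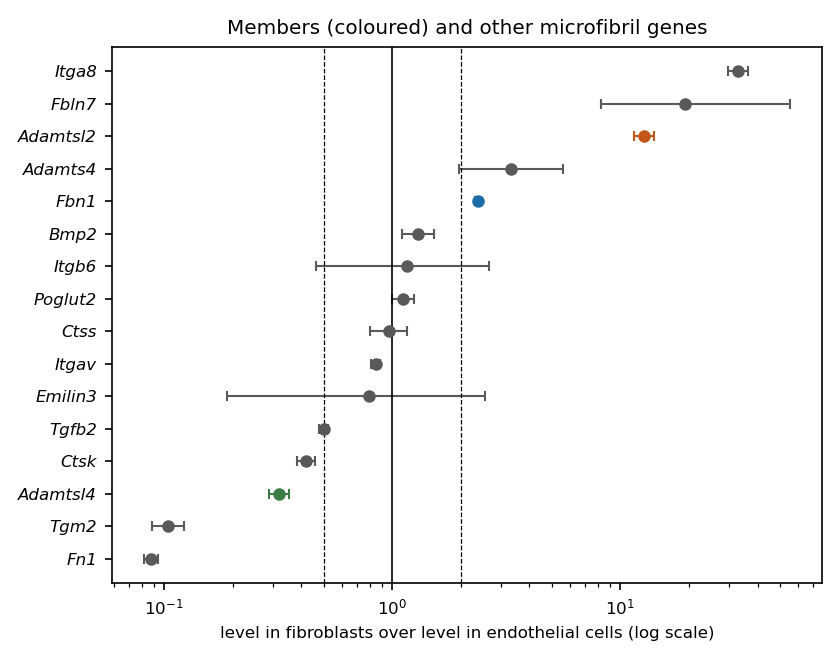
Level in fibroblasts over level in endothelial cells (horizontal, log scale) for the 3 members (coloured) and the 13 other microfibril genes with at least 3 UMIs in each group, with 95% exact conditional intervals. The solid line marks equal levels and the dashed lines 2 times more or less. Adamtsl2 (12.7) and Fbn1 (2.37) lie on the fibroblast side and Adamtsl4 (0.318) on the endothelial side, and genes of few UMIs such as Emilin3 have wide intervals.

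The genes with the most similar pattern were found by Pearson correlation of log2(level + 0.05) over 14 points, which were 7 cell groups in each of 2 runs, among 2208 genes. These points share the same pooled libraries, and r is a description. For Fbn1 they were Sertad4 (r = 0.937), Dnm3 (0.930), Map1a (0.902), Klhl12 (0.90) and Sh3d19 (0.897). Sertad4 was 0.548 in Scn7a fibroblasts, 0.502 in Prg4 fibroblasts, 0.270 in endothelial cells and 0.0775 in Ptprc cells. Klhl12 was 0.528, 0.527, 0.457 and 0.132 in the same order, so it differed little between these fibroblasts and endothelial cells. For Adamtsl2 they were Grb14 (0.956), Jph2 (0.949), Zfhx4 (0.934), Gm10855 (0.932) and Dnm3os (0.927). Grb14, an adapter of the insulin receptor, was 1.93 in Scn7a fibroblasts, 0.855 in Prg4 fibroblasts and 0.0749 in endothelial cells.

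For Adamtsl4 they were Tnfsf10 (0.892), Macrod2 (0.889), Fabp4 (0.887), Smyd2 (0.878) and Plekha3 (0.877). Endothelial cells were 1 group in each run, so r says nothing of differences within them. There Adamtsl4 was 0.315 in the Selp or Fabp4 subset and 1.02 in the Prox1 or Kif26b subset. Tnfsf10, which encodes the ligand TRAIL, was 0.596 in endothelial cells, 0.186 in Ptprc cells and 0.0532 in Prg4 fibroblasts. The lists of the 3 members had no gene in common. Lists of 5 among 2208 genes seldom share one, so this is no result about the members. Between the members themselves, r was 0.81 for Fbn1 and Adamtsl2, -0.083 for Fbn1 and Adamtsl4, and -0.29 for Adamtsl2 and Adamtsl4.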

How the data were processed

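The labels name single cells of mitral valve captured in droplets (10x Genomics, 3′ chemistry), and the submitters' processing notes name Cell Ranger 7.1.0 and mm10. According to the methods, the authors filtered and normalized in Seurat. The authors made the deposited values with LogNormalize, which scales each cell to 10000 UMIs, adds 1 and takes the natural log. Whether intronic reads were counted is not given in the sources used here, so levels were compared within a gene and not between genes.

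From the lowest value above 0 in each cell, taken as 1 UMI, whole UMIs and cell totals were recovered within 0.02. Of 3265 listed genes, 1 (the last) was not used because it has 11958 empty values, and genes outside chromosomes 1, 2 and 3 were not analysed here. Level ratios have exact conditional intervals, levels exact Poisson and shares exact binomial (Clopper-Pearson) intervals, all at 95%. Shares of cells were compared after thinning to 2000 UMIs. The recovery of UMIs and the level ratios with their intervals were tested on simulated Poisson counts, which hold counting error alone. The other steps were not part of that test. The cells could not be tied to the 3 samples, so no p-value, SD or paired fit was computed. No doublet caller was run, and the cells in which 2 or more fibroblast genes met Egfl7 were kept apart. Named genes were the 3 members, the listed microfibril genes and the 5 genes most like each member. The members, gene lists and comparisons were chosen with earlier results of these data known. Python 3.11.15, numpy 2.4.6, pandas 2.3.3, scipy 1.17.1 and matplotlib 3.10.9 were used.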

Additional observations from a re-analysis of the deposited data

How the results depend on the processing

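No value changed direction. Of 96 alternatives to the ratios and share differences, 68 stayed within the interval of the reported value and 28 moved outside it, and of 165 alternatives to single levels 49 moved. Some of the alternatives to single levels left the group as it was and so could not move. An example is endothelial cells when all 3 fibroblast genes were required of fibroblasts. In the second run alone the ratio of fibroblasts to endothelial cells was 1.41 for Fbn1, 11.4 for Adamtsl2 and 0.239 for Adamtsl4, and the ratio of Scn7a to Prg4 fibroblasts 1.07, 2.05 and 1.51. In the first run alone the Fbn1 ratio of Scn7a to Prg4 fibroblasts was 1.33. With cells weighted equally the Fbn1 ratio of fibroblasts to endothelial cells was 2.28. With at least 1 fibroblast gene in place of 2, that ratio was 2.26 for Fbn1, 15.1 for Adamtsl2 and 0.285 for Adamtsl4, and the Fbn1 ratio of Scn7a to Prg4 fibroblasts was 1.31. Without the Egfl7 condition on fibroblasts it was 2.31 for Fbn1 and 0.363 for Adamtsl4. For Adamtsl2, leaving out cells above the 95th percentile of UMIs gave 11.5 against endothelial cells and 1.85 between the subsets, where all 3 fibroblast genes gave 1.84 and cells with both genes in both subsets 1.45. The difference between fibroblasts and endothelial cells in the share of cells, 20.4 percentage points for Fbn1, 11.7 for Adamtsl2 and -7.92 for Adamtsl4, was 15.1, 7.03 and -5.12 at 1000 UMIs, 17.8 for Adamtsl2 and -12.3 for Adamtsl4 at 4000 UMIs, and 21.5 and -14.9 without thinning. The ratio of Fbn1 between runs was 3.07 in Scn7a fibroblasts. Chosen after seeing the data were 3 further alternatives: endothelial cells in place of fibroblasts for the ratio of Fbn1 between runs (1.51), endothelial cells without any fibroblast gene (15.5 for Adamtsl2), and barcodes of both runs left out, which moved no ratio. The cause of these differences was not tested. No paired analysis was possible because no barcode shows which replicate it is from, and for the same reason no sample could be left out in turn. Levels without the Egfl7 condition put fibroblasts above Ptprc cells for Adamtsl4, and the second run put endothelial above Ptprc cells for Adamtsl2, both orders that lie within counting error.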
